A study of Homo sapiens with 8 samples.

Results

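Autophagosomes are built by a set of genes that act in steps, and 34 of them were examined in A673 cells treated with JIB-04. The genes were chosen by name from textbook roles in autophagosome initiation, conjugation and fusion, out of 65975 gene identifiers in the expression table. Earlier results of these data were known when they were chosen. Of the 34 genes, 33 reached a mean of 1 FPKM over all libraries and were among the 17460 genes tested, and WIPI1 did not. FPKM are fragments scaled to transcript length and to the total of mapped reads. RNA-seq libraries were made from A673, an established Ewing Sarcoma line and a single genetic background, after 36 hours with 2 μM JIB-04 (4 libraries) or with DMSO as vehicle (4 libraries). JIB-04 is an inhibitor of the Jumonji-domain histone demethylases, and both groups were grown in the same medium. The comparison asked how 36 hours of drug altered the transcriptome. Each group was treated in quadruplicate by the study's methods, which do not say whether these were independent cultures or days, so p-values measure the spread among these libraries, which may be partly technical.

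Autophagy delivers cytoplasm to the lysosome inside a double membrane that grows from a small precursor. The ULK kinase complex receives signals from mTORC1 and AMPK and starts the process, and a class III PI3-kinase complex then marks the site with the lipid PI3P. PI3P effectors, lipid transfer proteins and scramblases enlarge the membrane, a pair of ubiquitin-like conjugation systems attach LC3 and GABARAP proteins to it, and SNARE and tethering proteins bring about fusion with the lysosome.

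FPKM summed to 1175407 to 1237186 in the JIB-04 libraries and to 1346289 to 1370436 in the vehicle libraries. Genes of the mitochondrial genome held 4.59% to 5.54% of the FPKM with JIB-04 and 9.99% to 10.6% in vehicle. The depth in reads is not known from FPKM. Relative depth was read from the most common ratio of low FPKM values between vehicle replicate 1, set to 1, and each library. It was 0.766 to 0.926 in the JIB-04 libraries and 0.822 to 0.954 in the other vehicle libraries. Only 14.3% to 16.4% of the low genes stood at that ratio, so these depths are rough. All 7 markers of Ewing Sarcoma cells were expressed, with summed levels of 1298 to 1394 FPKM in the JIB-04 libraries and 2036 to 2103 FPKM in the vehicle libraries. CD99 was the largest part of this sum, at means of 599 FPKM with JIB-04 and 1160 FPKM in vehicle. In FPKM, NKX2-2, STEAP1, PRKCB and EWSR1 were also lower with JIB-04. FLI1 was higher (means of 71.3 FPKM with JIB-04 and 60.4 FPKM in vehicle), and the groups of NR0B1 overlapped. Of 8 markers of other cell types, 7 had group means of at most 1.29 FPKM, and CDH1 was listed at 0 in vehicle. The sum of these 8 markers was 42.7 to 52.4 FPKM in the JIB-04 libraries and 13.1 to 16.3 FPKM in the vehicle libraries. Almost all of it was COL1A1, a fibroblast collagen, at means of 47.1 FPKM with JIB-04 and 13.8 FPKM in vehicle. LUM, the other fibroblast marker listed, was near the floor and went the other way (means of 0.088 FPKM with JIB-04 and 0.294 FPKM in vehicle). The part of COL1A1-expressing cells in the results was not tested, and in bulk RNA fewer cells of a type and less RNA per cell cannot be told apart.

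JIB-04 raised most of the machinery and lowered a minority of it. Of the 33 genes tested, 22 were higher with JIB-04 and 7 were lower by limma on log2(FPKM + 0.5), at a Benjamini-Hochberg adjusted p under 0.05 over all genes, and 4 did not pass. Over all genes tested, 34.2% were higher and 38.0% were lower, so 72.2% changed in either direction, against 66.7%, 21.2% and 87.9% of the machinery genes. Among protein-coding genes alone, 38.6% were higher and 41.5% were lower. The median log2 fold change was 0.59 over the 33 genes and -0.066 over all genes tested. A rise of at least 2-fold was seen for 7 genes, RB1CC1, PIK3C3, ATG14, UVRAG, ATG2B, ATG16L1 and EPG5, where 13.1% of all genes reached it. A fall of at least 2-fold was seen for ATG10 alone among the 33, where 11.8% of all genes reached it. The 29 genes that passed were the same 29 whose JIB-04 and vehicle libraries did not overlap, 22 with JIB-04 above and 7 with JIB-04 below, and 67.3% of all genes tested did not overlap. The study itself reported autophagy among the processes enriched in genes that JIB-04 raised at least 2-fold in these libraries. The counts here, which use no 2-fold cut for the 22 and 7, are therefore not independent evidence of that direction.

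Because 0.5 was added to each FPKM before taking logs, the fold change of a weakly expressed gene comes out smaller than its true size. Putting every library on the TPM scale, on which it sums to the same total, moved the median over all genes up by 0.15 (log2), and changes of that size depend on the scale. After this rescaling 23 of the 33 genes were higher and 6 were lower, against 40.4% and 31.1% of all genes. There were 10 genes at least 2-fold higher and 1 at least 2-fold lower, against 15.6% and 8.32% of all genes. When the mitochondrial genes were left out before rescaling, 23 of the 33 genes were higher and 6 were lower, against 37.2% and 34.5% of all genes.

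**Figure D1:**
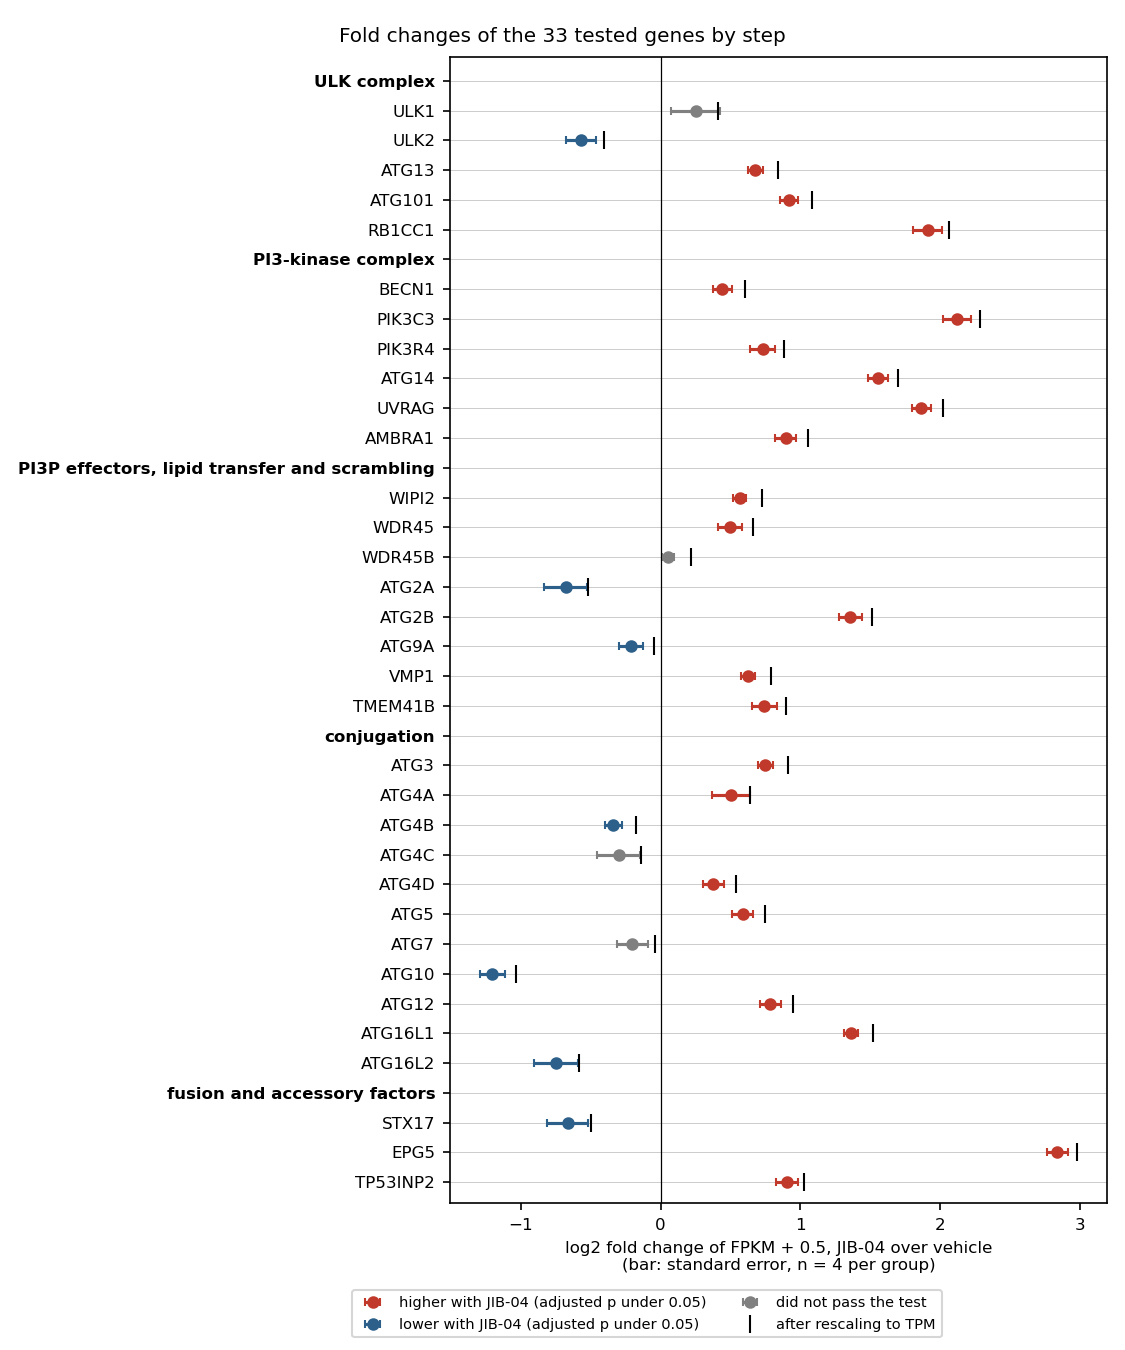
Log2 fold change of FPKM + 0.5, JIB-04 over vehicle, for the 33 tested genes grouped by step, with standard errors (n = 4 per group). Red points are the 22 genes that were higher, blue points the 7 that were lower and grey points the 4 that did not pass, and black ticks give the value after rescaling to TPM; EPG5 stands at 2.84 and ATG10 at -1.21.

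Promoter windows of the genes are shown because several of the transcription factors known to act on autophagy genes read short DNA words. TFEB and related factors bind the E-box CACGTG, and the lysosomal CLEAR element has TCACGTGA at its core. TGATGNAA is the C/EBP-ATF response element used by ATF4 and CHOP, TGACGTCA is the cAMP response element, and ACGTG is the core of the hypoxia response element. Each window runs from 250 bases before to 50 bases after a RefSeq transcript start (GRCh38.p14), and both strands were searched. RefSeq windows were matched for 28 of the 34 genes (33 windows). EPG5, RB1CC1, UVRAG, WDR45B, ATG4D and STX17 had no window and were not searched, and EPG5 had the largest rise of all. The 4 windows that hold one of the 4 longer words are printed with the word in capitals, beside that of PIK3C3, the largest rise with a window, and of ATG10, the largest fall. The ATG3 window is chr3:112561913-112562212 (minus strand), the ATG14 window chr14:55411781-55412080 (minus strand) and the TP53INP2 window chr20:34704094-34704393 (plus strand). The WDR45 window is chrX:49079838-49080137 (minus strand), the PIK3C3 window chr18:41954984-41955283 (plus strand) and the ATG10 window chr5:81971773-81972072 (plus strand). All are written 5′ to 3′ on the strand of the gene.
ATG3: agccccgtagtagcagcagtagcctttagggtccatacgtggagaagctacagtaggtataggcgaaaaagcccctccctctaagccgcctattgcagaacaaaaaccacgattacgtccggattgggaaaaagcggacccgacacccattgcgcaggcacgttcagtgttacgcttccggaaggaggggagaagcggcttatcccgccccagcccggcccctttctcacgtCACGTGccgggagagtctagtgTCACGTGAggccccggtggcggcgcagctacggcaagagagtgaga
ATG14: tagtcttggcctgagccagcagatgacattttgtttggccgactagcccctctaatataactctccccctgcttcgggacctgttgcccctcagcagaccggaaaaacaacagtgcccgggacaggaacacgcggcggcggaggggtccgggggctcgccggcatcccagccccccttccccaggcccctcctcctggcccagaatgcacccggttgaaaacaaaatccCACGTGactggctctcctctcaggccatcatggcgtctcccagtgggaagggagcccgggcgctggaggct
TP53INP2: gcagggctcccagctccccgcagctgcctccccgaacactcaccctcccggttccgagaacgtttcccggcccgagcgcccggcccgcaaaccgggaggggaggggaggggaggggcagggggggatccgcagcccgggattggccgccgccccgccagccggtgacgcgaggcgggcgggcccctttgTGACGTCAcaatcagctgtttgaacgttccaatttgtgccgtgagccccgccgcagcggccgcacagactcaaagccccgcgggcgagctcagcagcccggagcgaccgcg
WDR45: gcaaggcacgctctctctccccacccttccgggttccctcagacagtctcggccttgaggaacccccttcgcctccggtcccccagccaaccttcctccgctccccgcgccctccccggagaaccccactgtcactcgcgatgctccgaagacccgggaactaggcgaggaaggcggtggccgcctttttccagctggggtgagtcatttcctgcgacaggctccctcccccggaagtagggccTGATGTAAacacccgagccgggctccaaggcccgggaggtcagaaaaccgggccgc
PIK3C3: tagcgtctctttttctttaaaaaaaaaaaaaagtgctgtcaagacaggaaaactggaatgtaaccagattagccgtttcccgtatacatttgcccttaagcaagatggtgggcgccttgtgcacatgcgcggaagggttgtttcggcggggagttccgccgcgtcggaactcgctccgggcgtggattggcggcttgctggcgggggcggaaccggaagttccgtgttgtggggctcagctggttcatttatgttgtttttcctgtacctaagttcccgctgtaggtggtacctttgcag
ATG10: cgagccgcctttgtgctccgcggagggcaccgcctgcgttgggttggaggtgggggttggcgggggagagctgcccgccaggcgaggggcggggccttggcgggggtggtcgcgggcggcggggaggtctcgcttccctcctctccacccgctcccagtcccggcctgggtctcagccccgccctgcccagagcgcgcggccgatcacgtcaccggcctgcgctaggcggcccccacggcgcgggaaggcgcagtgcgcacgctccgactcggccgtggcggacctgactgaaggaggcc

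CACGTG stood in 2 of the 33 windows (6.06%), those of ATG3 and ATG14, against 7.26% of all 35116 windows. In ATG3 it began 18 bases before the start and again in the first transcribed bases, where it lies inside the single TCACGTGA among the windows of these genes, a word found in 0.980% of all windows. TGATGNAA was found in WDR45 (3.62% of all windows) and TGACGTCA in TP53INP2 (1.85% of all windows). ACGTG, which every CACGTG holds, was found in 10 of 33 windows (30.3%) and in 21.4% of all windows. These are matches of letters and say nothing of whether a factor was bound.

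In the ULK complex, JIB-04 raised the scaffold subunits and lowered a kinase. RB1CC1, also called FIP200, the scaffold on which the complex assembles, rose most. It had 62.8, 63.0, 73.1 and 59.6 FPKM in the JIB-04 libraries, against 15.0, 17.9, 14.9 and 19.8 FPKM in the vehicle libraries. The groups did not overlap and the means were 3.83-fold apart (64.7 ± 5.85 FPKM with JIB-04 and 16.9 ± 2.38 FPKM in vehicle, SD, n = 4 each, log2 fold change 1.91, SE 0.10, limma adjusted p = 2.46e-07). ATG13, the adaptor that links the kinases to RB1CC1, rose to 204 ± 6.36 FPKM with JIB-04 against 127 ± 8.17 FPKM in vehicle (log2 fold change 0.68, SE 0.05, adjusted p = 2.21e-06). ATG101, which stabilizes ATG13, rose to 147 ± 8.76 FPKM with JIB-04 against 77.4 ± 5.87 FPKM in vehicle (log2 fold change 0.92, SE 0.07, adjusted p = 1.37e-06). No JIB-04 library overlapped the vehicle libraries for either gene.

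Of the kinases themselves, only ULK2 passed the test, as lower. ULK2 had 16.0, 12.8, 13.8 and 11.0 FPKM with JIB-04, against 18.6, 20.3, 21.4 and 19.8 FPKM in vehicle, with every JIB-04 library below every vehicle library (log2 fold change -0.57, SE 0.11, adjusted p = 0.00102). ULK1 had 34.3, 28.9, 19.9 and 20.9 FPKM with JIB-04, against 24.8, 18.3, 22.9 and 19.6 FPKM in vehicle. JIB-04 replicates 1 and 2 were above all vehicle libraries and JIB-04 replicates 3 and 4 were within them, so ULK1 did not pass (log2 fold change 0.25, SE 0.18, adjusted p = 0.229).

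**Figure D2:**
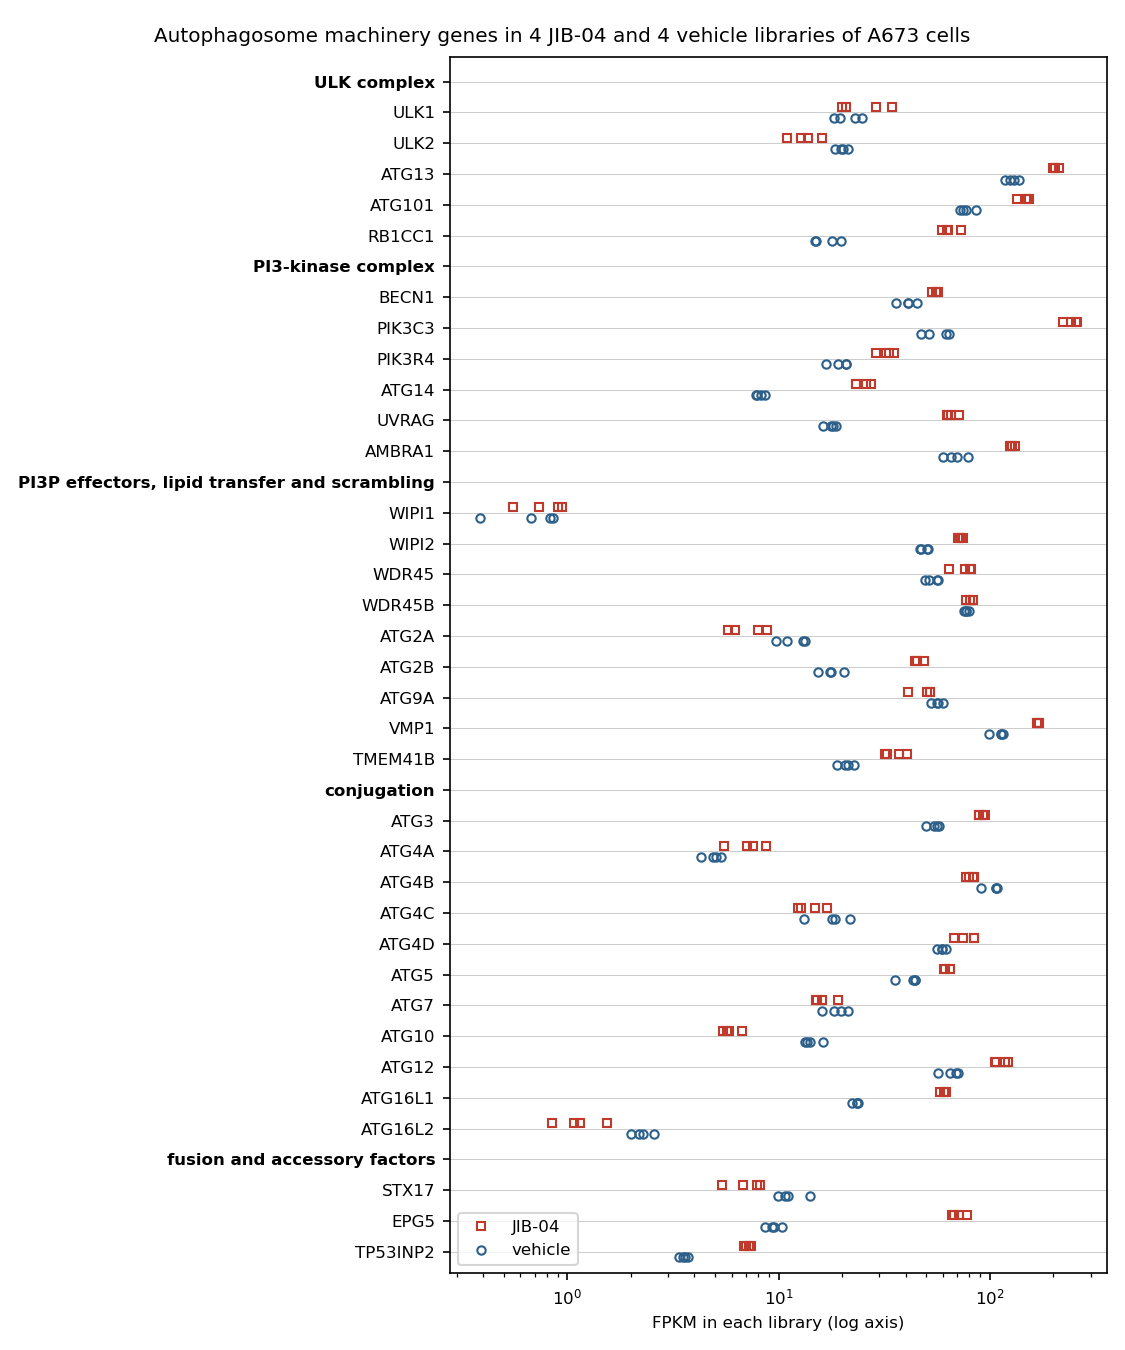
FPKM of the 34 genes in each library on a log axis, with red squares for the 4 JIB-04 libraries and blue circles for the 4 vehicle libraries, by step. The groups are clear of each other for EPG5, PIK3C3, UVRAG and RB1CC1, and they overlap for ULK1, WIPI1, WDR45B, ATG4C and ATG7.

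The PI3-kinase complex was the step in which all 6 members rose, with a median log2 fold change of 1.22. Over all genes tested 34.2% rose, and the median was -0.066. PIK3C3, the lipid kinase VPS34 that makes PI3P, had 241, 223, 256 and 259 FPKM with JIB-04, against 47.4, 63.8, 51.6 and 61.7 FPKM in vehicle. Its lowest JIB-04 library was far above its highest vehicle library, and the means were 4.36-fold apart (log2 fold change 2.12, SE 0.10, adjusted p = 9.30e-08). UVRAG, the subunit of the complex that acts on endosomes and late autophagosomes, had 63.3, 62.8, 71.7 and 65.7 FPKM with JIB-04, against 16.1, 18.8, 18.1 and 17.8 FPKM in vehicle. The groups stood 3.72-fold apart (log2 fold change 1.87, SE 0.07, adjusted p = 2.03e-08). ATG14, which takes UVRAG's place in the complex that starts autophagosomes, had 23.3, 23.2, 27.4 and 25.8 FPKM with JIB-04, against 7.88, 8.63, 8.23 and 7.82 FPKM in vehicle. The vehicle libraries were within 1 FPKM of each other, and the JIB-04 mean was 3.06-fold higher (log2 fold change 1.55, SE 0.07, adjusted p = 1.08e-07).

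The other genes of the step had smaller fold changes. BECN1, Beclin 1, the core to which ATG14 or UVRAG binds, had 56.6, 56.2, 55.7 and 53.5 FPKM with JIB-04, against 41.0, 40.9, 45.4 and 36.1 FPKM in vehicle (log2 fold change 0.44, SE 0.07, adjusted p = 0.000276). PIK3R4, the VPS15 subunit that holds the kinase, rose to 32.4 ± 2.66 FPKM with JIB-04 against 19.4 ± 1.92 FPKM in vehicle (log2 fold change 0.73, SE 0.09, adjusted p = 5.24e-05). AMBRA1, which brings regulators to Beclin 1, rose to 127 ± 3.17 FPKM with JIB-04 against 68.6 ± 7.76 FPKM in vehicle (log2 fold change 0.89, SE 0.08, adjusted p = 4.31e-06). By level, the kinase subunit PIK3C3 was highest of the complex with JIB-04, while AMBRA1 was highest in vehicle, where the ranges of AMBRA1 (60.2 to 78.5 FPKM) and PIK3C3 (47.4 to 63.8 FPKM) overlapped. ATG14 was the lowest of the 6 in both groups.

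Among PI3P effectors, lipid transfer proteins and scramblases, 5 of 8 tested genes rose, 2 fell and 1 did not pass, with a median log2 fold change of 0.53. These are 62.5% higher and 25% lower, against 34.2% and 38.0% of all genes tested, whose median was -0.066. WIPI2, the PI3P-binding protein that recruits ATG16L1, had 71.0, 74.7, 71.5 and 73.2 FPKM with JIB-04, against 47.4, 50.6, 50.9 and 46.9 FPKM in vehicle (log2 fold change 0.56, SE 0.05, adjusted p = 3.55e-06). Its relative WIPI1 had 0.554, 0.734, 0.900 and 0.949 FPKM with JIB-04, against 0.385, 0.673, 0.853 and 0.831 FPKM in vehicle. WIPI1 lay under the filter, was not tested by limma, and its groups overlapped (exact two-sided permutation p = 0.543, n = 4 each). WDR45, also called WIPI4 and a partner of ATG2, had 76.6, 81.0, 81.6 and 64.3 FPKM with JIB-04, against 56.6, 51.3, 56.2 and 49.6 FPKM in vehicle (log2 fold change 0.50, SE 0.08, adjusted p = 0.000497). WDR45B, also called WIPI3, had 80.8, 82.9, 76.7 and 80.7 FPKM with JIB-04, against 77.3, 77.2, 79.4 and 75.4 FPKM in vehicle. The groups overlapped and WDR45B did not pass (log2 fold change 0.054, SE 0.04, adjusted p = 0.263), but it passed as higher on the TPM scale (log2 fold change 0.22).

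The paralogs ATG2A and ATG2B, tubes that carry lipid from the endoplasmic reticulum to the growing membrane, moved in opposite directions. ATG2B had 48.6, 45.3, 45.4 and 44.4 FPKM with JIB-04, against 17.7, 17.5, 15.3 and 20.4 FPKM in vehicle, a 2.59-fold rise (log2 fold change 1.36, SE 0.08, adjusted p = 5.17e-07). ATG2A had 8.77, 8.04, 5.76 and 6.24 FPKM with JIB-04, against 13.3, 10.9, 9.76 and 13.1 FPKM in vehicle (log2 fold change -0.68, SE 0.15, adjusted p = 0.00274). Neither paralog's groups overlapped, though the highest JIB-04 and lowest vehicle values of ATG2A were close. ATG9A, a scramblase of the vesicles that seed the membrane, had 52.3, 52.4, 40.9 and 50.2 FPKM with JIB-04, against 56.1, 60.3, 52.7 and 56.8 FPKM in vehicle. The groups all but touched, and ATG9A passed the threshold narrowly (log2 fold change -0.21, SE 0.09, adjusted p = 0.0490). It no longer passed on the TPM scale (log2 fold change -0.048), or without JIB-04 replicate 3 or 4 (adjusted p = 0.0735 and 0.0701) or vehicle replicate 1, 2 or 4 (adjusted p = 0.0811, 0.124 and 0.0874). In GENCODE 29, 1833 exonic bases of ATG9A (38.8%) lie in exons of AC068946.2 on the same strand, and reads from the shared bases cannot be told apart.

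The endoplasmic reticulum scramblases rose together. VMP1 had 170.4, 169.8, 169.5 and 167.5 FPKM with JIB-04, against 99.0, 115, 112 and 113 FPKM in vehicle (log2 fold change 0.62, SE 0.05, adjusted p = 3.72e-06). Its partner TMEM41B had 31.9, 32.5, 40.4 and 37.0 FPKM with JIB-04, against 20.7, 18.9, 21.4 and 22.7 FPKM in vehicle (log2 fold change 0.74, SE 0.09, adjusted p = 5.42e-05). The JIB-04 libraries of VMP1 were nearly level with each other (SD 1.28 FPKM), and every one of them was above every vehicle library for both genes.

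In the conjugation step 6 of 11 genes rose, 3 fell and 2 did not pass, with a median log2 fold change of 0.38. These are 54.5% higher and 27.3% lower, against 34.2% and 38.0% of all genes tested, whose median was -0.066. ATG16L1, the subunit that sets where LC3 is attached, rose most, with 58.1, 60.4, 61.7 and 62.1 FPKM with JIB-04, against 22.2, 23.5, 23.8 and 23.5 FPKM in vehicle. The libraries of each group were close together and the means were 2.60-fold apart (log2 fold change 1.36, SE 0.05, adjusted p = 1.88e-08). ATG12, the ubiquitin-like protein that joins ATG5, rose to 113 ± 7.82 FPKM with JIB-04 against 65.4 ± 6.23 FPKM in vehicle (log2 fold change 0.79, SE 0.08, adjusted p = 1.36e-05). ATG5, to which ATG12 is joined, rose to 62.9 ± 2.27 FPKM with JIB-04 against 41.9 ± 4.24 FPKM in vehicle (log2 fold change 0.59, SE 0.08, adjusted p = 8.30e-05). ATG16L2, a relative of ATG16L1 at a low level, fell, with 1.15, 1.07, 1.54 and 0.850 FPKM with JIB-04, against 2.19, 2.27, 2.57 and 2.01 FPKM in vehicle (log2 fold change -0.75, SE 0.16, adjusted p = 0.0019).

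The enzymes of the step differed in direction. ATG10, the E2-like enzyme that carries ATG12, fell furthest of the 33 genes, with 5.72, 5.86, 6.68 and 5.48 FPKM with JIB-04, against 14.2, 13.7, 13.4 and 16.2 FPKM in vehicle. Every JIB-04 library was at most 6.68 FPKM, below all vehicle libraries, and the JIB-04 mean was 2.42-fold lower (log2 fold change -1.21, SE 0.09, adjusted p = 1.83e-06). Exons of ATG10 share 374 bases (6.86%) with the ribosomal protein gene RPS23 on the opposite strand, and RPS23 also fell, to 2466 FPKM with JIB-04 against 3884 FPKM in vehicle. The libraries were directional, but no source used here states how strand was handled in counting, so the part of RPS23 reads in the ATG10 values was not tested. ATG3, the E2-like enzyme that carries LC3, had 89.2, 92.8, 94.6 and 89.3 FPKM with JIB-04, against 49.7, 54.4, 57.2 and 56.0 FPKM in vehicle (log2 fold change 0.75, SE 0.05, adjusted p = 1.35e-06). ATG7, the E1-like enzyme that feeds both E2 enzymes, had 15.2, 19.2, 16.0 and 15.0 FPKM with JIB-04, against 16.0, 21.4, 19.7 and 18.4 FPKM in vehicle. Its groups overlapped and it did not pass (log2 fold change -0.20, SE 0.11, adjusted p = 0.120), but it passed as lower without JIB-04 replicate 2 (adjusted p = 0.0353) or without vehicle replicate 1 (adjusted p = 0.0387). Exons of ATG7 share 1596 bases (18.1%) with VGLL4 on the opposite strand, which was higher with JIB-04 (log2 fold change 0.45).

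The ATG4 proteases, which trim LC3 and GABARAP before conjugation and release them afterwards, also differed. ATG4D had 84.3, 83.7, 67.6 and 74.8 FPKM with JIB-04, against 59.6, 62.0, 56.4 and 59.6 FPKM in vehicle (log2 fold change 0.38, SE 0.07, adjusted p = 0.00137). ATG4A had 7.55, 5.50, 8.72 and 7.08 FPKM with JIB-04, against 4.32, 4.91, 5.32 and 5.05 FPKM in vehicle, with little space between the groups (log2 fold change 0.50, SE 0.13, adjusted p = 0.0079). ATG4B, the most abundant of the 4 in vehicle, fell, with 77.5, 84.5, 80.1 and 83.1 FPKM with JIB-04, against 107, 108, 107 and 91.2 FPKM in vehicle. Its groups did not overlap (log2 fold change -0.34, SE 0.06, adjusted p = 0.000867), and with JIB-04 its mean of 81.3 FPKM lay within the range of ATG4D. ATG4C had 17.0, 14.9, 12.3 and 12.8 FPKM with JIB-04, against 13.1, 18.4, 17.8 and 21.7 FPKM in vehicle, which overlapped and did not pass (log2 fold change -0.30, SE 0.15, adjusted p = 0.109). Vehicle replicate 1 was the lowest vehicle library, and without it ATG4C passed as lower (adjusted p = 0.0142).

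Of the genes of fusion and of LC3 binding, EPG5 had the largest rise of all 33. EPG5 (chr18:45847609-45967339, minus strand, GRCh38), which tethers autophagosomes to late endosomes and lysosomes, had 66.5, 77.9, 71.5 and 67.8 FPKM with JIB-04, against 8.62, 9.55, 9.35 and 10.4 FPKM in vehicle. The lowest JIB-04 library was well above the highest vehicle library, and the means of 70.9 ± 5.09 FPKM with JIB-04 and 9.49 ± 0.744 FPKM in vehicle were 7.48-fold apart (log2 fold change 2.84, SE 0.07, adjusted p = 4.22e-09). STX17, the autophagosomal SNARE, fell, with 6.78, 5.38, 7.90 and 8.14 FPKM with JIB-04, against 9.93, 10.7, 11.0 and 14.0 FPKM in vehicle, without overlap (log2 fold change -0.66, SE 0.15, adjusted p = 0.00267). TP53INP2, which binds LC3 and GABARAP proteins and takes part in autophagosome formation, rose to 7.11 ± 0.230 FPKM with JIB-04 against 3.57 ± 0.140 FPKM in vehicle, 1.99-fold (log2 fold change 0.90, SE 0.08, adjusted p = 4.61e-06).

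In the GENCODE 29 models, 18 of the 34 genes share exonic bases with another gene, 3 of them on the same strand (VMP1, WDR45 and ATG9A). WDR45 shares 757 bases (13.9%) with PRAF2, which fell (log2 fold change -0.44) while WDR45 rose. On the opposite strand ATG4D shares 341 bases (15.0%) with KRI1, which was lower (-0.14), and ATG101 shares 614 bases (19.2%) with AC025259.1, whose group means were under 0.1 FPKM. The part of the overlapping genes in these values was not tested.

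Related genes were also compared within each library, as the log2 ratio of their FPKM + 0.5, which hardly moves with the scaling of the library. Of 12 pairs, 10 passed an exact two-sided permutation test of 4 against 4 libraries (each p = 0.0286, the smallest this design allows, and 0.0343 after Benjamini-Hochberg adjustment over the 12 pairs). The ratio was higher with JIB-04 in 7 of these and lower in 3. In all 10 the libraries of the groups did not overlap, which in this design is the same fact as reaching the smallest p. Some pairs share ATG10, ATG4B or ATG4D, so the pairs are not independent. The share among all possible pairs of genes was not counted, and 67.3% of all single genes tested did not overlap. The ratio ATG16L1 over ATG16L2 averaged 5.22 ± 0.25 with JIB-04 and 3.11 ± 0.11 in vehicle on the log2 scale (SD, n = 4 each), a difference of 2.11. In linear FPKM, ATG16L1 was 52.5 times ATG16L2 with JIB-04 and 10.3 times in vehicle. ATG2A over ATG2B was -2.61 ± 0.23 with JIB-04 and -0.57 ± 0.12 in vehicle, so that ATG2A stood at 0.157 of ATG2B with JIB-04 and at 0.665 of it in vehicle.

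Among the enzymes, the ratio ATG3 over ATG10, the E2 enzymes of the LC3 and ATG12 branches, was 15.4 with JIB-04 and 3.79 in vehicle in linear FPKM (a log2 difference of 1.95). The ratio ATG7 over ATG10 had a log2 difference of 1.00. ULK1 over ULK2 was 1.94 with JIB-04 and 1.07 in vehicle, a log2 difference of 0.82, so the balance of the kinases shifted though ULK1 alone did not pass. UVRAG over ATG14 had a smaller difference of 0.31 (log2 ratios 1.39 ± 0.04 with JIB-04 and 1.07 ± 0.06 in vehicle). ATG4A over ATG4B and WDR45 over WDR45B were higher with JIB-04 by 0.84 and 0.44, and ATG4C over ATG4D and ATG4B over ATG4D were lower by 0.68 and 0.72. For VMP1 over TMEM41B (log2 difference -0.12, exact p = 0.371) and WIPI1 over WIPI2 (-0.44, exact p = 0.0857) the test was not passed, though with a pseudocount of 1 the ratio WIPI1 over WIPI2 passed (-0.47, exact permutation test, adjusted p = 0.0312).

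**Figure D3:**
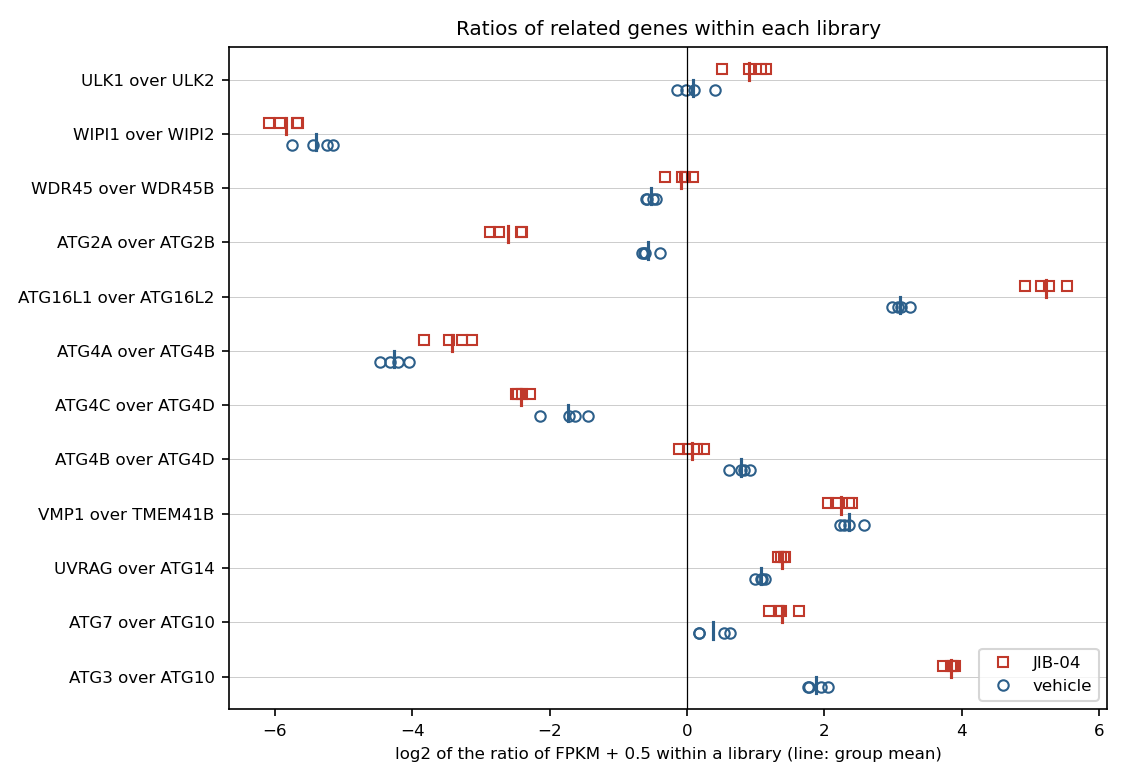
Log2 ratio of FPKM + 0.5 of 12 pairs of related genes within each library, with red squares for the 4 JIB-04 libraries, blue circles for the 4 vehicle libraries and vertical lines for group means. The groups are clear of each other for 10 pairs, and ATG16L1 over ATG16L2 and ATG2A over ATG2B differ most, by 2.11 and -2.04.

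Fold changes of the whole table moved with base composition, so the machinery was set beside it. Across genes, the Spearman rank correlation of log2 fold change with the GC content of the longest transcript was -0.31 over the 33 genes and -0.32 over 12251 protein-coding genes, in the same 8 libraries, and genes are not independent replicates. The genes had a median GC content of 46.4% (34.8% to 64.8%), against 48.1% for all protein-coding genes. With the GC trend of all genes removed, a setting chosen after seeing the data, 24 of the 33 genes were higher and 5 were lower, against 33.5% and 39.0% of all genes tested, with a median log2 fold change of 0.47. ULK1 and WDR45B then passed as higher (log2 fold change 0.67 and 0.16) and ATG4C as lower (-0.78). ATG2A no longer passed (-0.26), and ATG9A and ATG4B stood at 0.11 and 0.011 without passing. The directions of the falls in ATG9A and ATG4B therefore did not hold under this setting, and whether GC content plays a part in them was not tested further. ATG10, STX17, ULK2 and ATG16L2 were lower with and without the trend.

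**Figure D4:**
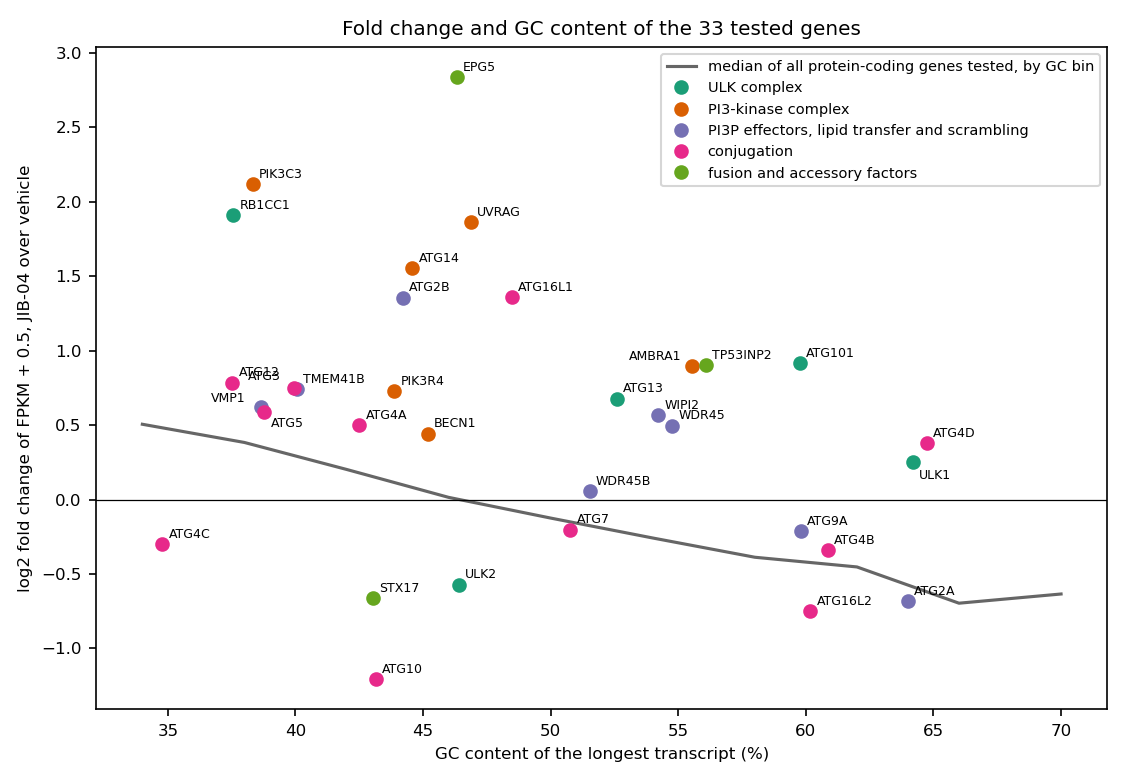
Log2 fold change of FPKM + 0.5, JIB-04 over vehicle, against the GC content of the longest transcript (%) for the 33 genes, coloured by step. The grey line is the median of all protein-coding genes tested in bins of GC content; EPG5 at 2.84 and PIK3C3 at 2.12 stand far above it and ATG10 at -1.21 far below it.

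The other genes of the pathway were listed by role, and 35 of 39 were tested, of which 20 were higher with JIB-04, 11 were lower and 4 did not pass, with a median log2 fold change of 0.43. These are 57.1% higher and 31.4% lower, against 34.2% and 38.0% of all genes tested. At least 2-fold rises were seen for 13 of them and a 2-fold fall for MLST8, where 13.1% and 11.8% of all genes reached that size. Of 6 LC3 and GABARAP genes, the proteins that the conjugation step attaches, 5 rose and 1 fell. MAP1LC3B rose to 346 ± 17.6 FPKM with JIB-04 against 55.1 ± 2.08 FPKM in vehicle (log2 fold change 2.64, SE 0.05, adjusted p = 6.89e-10). MAP1LC3B2 is a near-identical copy (log2 fold change 2.61), so reads may be split between the copies and both values are uncertain. Both copies are counted above among the 5, the 20 and the 13, and they may not be separate rises. GABARAP had a log2 fold change of 0.56, and MAP1LC3A alone of the family fell (-0.46, adjusted p = 0.00172). With the GC trend removed MAP1LC3A stood at -0.036 and did not pass (adjusted p = 0.630).

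The regulators upstream of the ULK complex were mixed. Of 4 tested genes of mTORC1, the kinase complex that restrains ULK1, MTOR, RPTOR and MLST8 fell (log2 fold change -0.45, -0.63 and -1.31), while AKT1S1, the inhibitory subunit PRAS40, rose to 264 ± 27.7 FPKM with JIB-04 against 111 ± 9.28 FPKM in vehicle. Of 5 tested AMPK subunits, the energy sensor that activates ULK1, 2 rose and 3 fell. Over all genes tested, 34.2% rose and 38.0% fell. The regulatory subunits PRKAG2 and PRKAB2 rose (log2 fold change 1.34 and 0.80) and PRKAG1 fell (-0.89). The catalytic subunit PRKAA1 also fell, to 53.4 ± 3.75 FPKM with JIB-04 against 80.6 ± 9.47 FPKM in vehicle (log2 fold change -0.58, limma adjusted p = 0.000238). PRKAA2, the other catalytic subunit, lay under the filter. PRKAB1, among the 3 that fell, passed narrowly and did not pass on the TPM scale (adjusted p = 0.0308 and 0.370). It also did not pass without JIB-04 replicate 1, 3 or 4 or vehicle replicate 2 or 3 (adjusted p = 0.0526 to 0.0832).

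Of 8 regulators of the PI3-kinase complex and of PI3P, 6 rose, 1 fell and 1 did not pass. Over all genes tested, 34.2% rose and 38.0% fell. The 6 include RUBCN, a Beclin 1 binding inhibitor of the UVRAG form, which passed narrowly with overlapping groups (log2 fold change 0.27, adjusted p = 0.0468). It kept its call without JIB-04 replicate 3 and lost it when any other library was left out (adjusted p = 0.0716 to 0.123). ZFYVE1, the protein DFCP1 that marks PI3P at the endoplasmic reticulum, rose to 45.9 ± 1.09 FPKM with JIB-04 against 6.87 ± 0.754 FPKM in vehicle (log2 fold change 2.66, SE 0.08, adjusted p = 7.24e-09). The PI3P phosphatase MTMR14 and NRBF2, a subunit that joins the ATG14 form of the complex, rose as well (log2 fold change 1.39 and 1.32). BCL2L1, a Beclin 1 binding inhibitor, was the single gene of the list to pass as lower on the FPKM as deposited (-0.58, adjusted p = 7.51e-06). Its relative BCL2, which also binds Beclin 1, went the other way and was among the 6 that rose (0.37, limma adjusted p = 0.00158). SH3GLB1, a Beclin 1 partner, did not pass there (-0.099, adjusted p = 0.238) but passed as lower with the GC trend removed (-0.40, adjusted p = 0.000152) and without vehicle replicate 1 (-0.16, adjusted p = 0.0342). Of 11 genes of fusion with the lysosome, 6 rose, 3 fell and 2 did not pass (54.5% higher and 27.3% lower, beside the same 34.2% and 38.0%). RAB7A, the GTPase of late endosomes, rose to 880 ± 42.5 FPKM with JIB-04 against 265 ± 7.97 FPKM in vehicle (log2 fold change 1.73, SE 0.04, adjusted p = 3.17e-09), and the shared core subunits of the HOPS and CORVET tethers were split. VPS11 and VPS18 rose (1.91 and 1.13), while VPS16 and VPS33A fell (-0.61 and -0.43, adjusted p = 0.000174 and 0.000824). SNAP29 and VPS39 did not pass, and both passed as higher on the TPM scale (0.29 and 0.14). ATG9B, the other ATG9, did not pass (0.062, adjusted p = 0.754), but passed as higher with the GC trend removed (0.45, adjusted p = 0.0321).

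**Figure D5:**
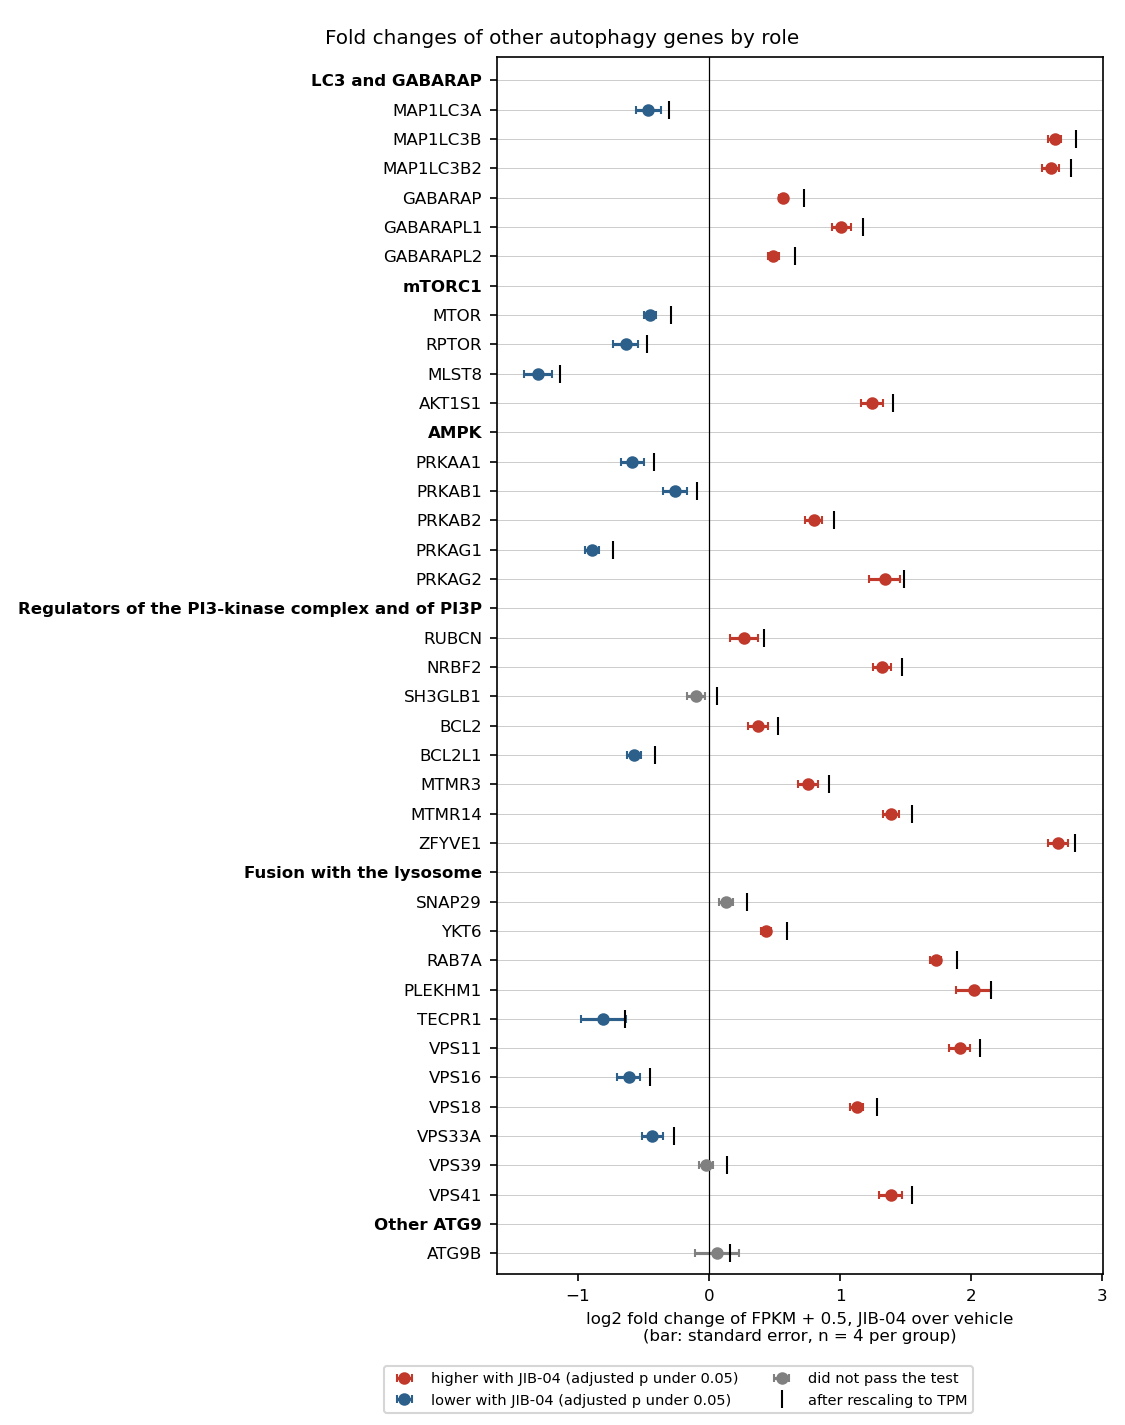
Log2 fold change of FPKM + 0.5, JIB-04 over vehicle, of the 35 tested genes of the other autophagy lists by role, with standard errors (n = 4 per group). Red points are the 20 genes that were higher, blue points the 11 that were lower and grey points the 4 that did not pass, and black ticks give the value after rescaling to TPM; ZFYVE1 and MAP1LC3B lie at 2.66 and 2.64 and MLST8 at -1.31.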

How the data were processed

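RNA-seq of A673 cells was used as deposited: a table of FPKM for each gene in 8 libraries, 4 treated with 2 μM JIB-04 for 36 hours and 4 with vehicle. According to the submitters' processing notes and the labels, the authors used GSNAP to align single-end reads of directional mRNA libraries, with GRCh38 as the build, then SAMtools, and obtained FPKM from Cufflinks for each library. The read length differs between the sources. Columns not assigned to a library were 0.

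Values of 117 identifiers with more than 1 entry among 66095 entries were summed, and 13 genes with a placeholder value were left out. Genes whose mean reached 1 FPKM were tested with limma (3.58.1, under R 4.3.3, eBayes with a variance trend) on log2 values of FPKM + 0.5, with Benjamini-Hochberg adjustment over all 17460 genes tested, and the fit was tested on simulated data. Depth in reads is unknown from FPKM, so precision comes from the spread between libraries. Ratios used exact permutation tests in scipy 1.17.1. GENCODE 29 gave gene models and RefSeq the promoter windows. RUBCN was found by its identifier, under an older symbol, and the highest of several identifiers of a symbol was kept.

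The members and lists were chosen with earlier results of these data known. Library values are given for genes with the largest or smallest change of their step, genes of a pair, and genes that did not pass or changed call under rescaling. Of other lists, up to 3 genes with the smallest adjusted p are named, and any that alone went its way; ATG9B stands alone in its list. BCL2, PRKAA1, PRKAA2, PRKAB1, RUBCN, SH3GLB1, VPS16, VPS33A, SNAP29 and VPS39 were named after their values were seen. The alternatives were pseudocounts of 0.1 and 1, no filter, a filter of 5 FPKM, TPM with and without mitochondrial genes, median-ratio scaling, the analysis of variance of FPKM that the study's methods name, a replicate block, leaving out each library, and removal of the GC trend, which was chosen after seeing the data.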

Additional observations from a re-analysis of the deposited data

Results flagged for a closer look

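In 92 groups of 4 libraries (the 34 genes and 12 ratios in each group), 4 values stood apart from the other 3 of their group by more than the 95% critical value of Dixon's test for 4 values, where chance gives about 1 in 20 groups. VMP1 had 98.98 FPKM in vehicle replicate 1, the lowest of its group. ATG5 had 35.52 FPKM in vehicle replicate 1, also the lowest. ATG4B had 91.18 FPKM in vehicle replicate 4, the lowest of its group. The log2 ratio ATG2A over ATG2B was -0.3956 in vehicle replicate 1, the highest of its group. In each case the JIB-04 libraries still did not overlap the vehicle libraries.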

How the results depend on the processing

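The count of genes of the machinery that rose (22) ranged from 22 to 22 when each library was left out in turn, that of genes that fell (7) from 6 to 8, and the count of 2-fold rises from 7 to 7. Reversals of sign were few. With the GC trend removed, ATG9A was at 0.11 and ATG4B at 0.011 (log2 fold change). SH3GLB1 was at 0.063 on the TPM scale, and VPS39 at 0.14 on it, 0.056 on it without mitochondrial genes, 0.035 with median-ratio scaling and 0.075 with the GC trend removed. When each library was left out in turn, VPS39 ranged from -0.047 to 0.012 (without JIB-04 replicate 3) and ATG9B from -0.066 (without vehicle replicate 2) to 0.14. Of these, VPS39 on the TPM scale passed the test (adjusted p = 0.0281), and none of these genes passed both before and after with opposite signs. ATG9A also lost its call with no filter and under median-ratio scaling or the analysis of variance (adjusted p = 0.0844, 0.104 and 0.0741). PRKAB1 and RUBCN, which passed narrowly (adjusted p = 0.0308 and 0.0468), lost their call without 5 and 7 of the 8 libraries in turn, with no filter and under the analysis of variance, and PRKAB1 also under every rescaling. With the GC trend removed, MAP1LC3A lost its call (-0.036) while SH3GLB1 (-0.40) and ATG9B (0.45) gained one, and with a pseudocount of 1, 11 of 12 ratios passed, WIPI1 over WIPI2 being added. Over all genes, 1526 rose at least 2-fold under the filter of 5 FPKM, which tests fewer genes, against 2294. Upstream of the start alone, TCACGTGA and TGATGNAA were each found in 0 windows of these genes.

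Same-numbered libraries showed little common deviation (correlations 0.082, -0.058, 0.026 and -0.0024), and JIB-04 replicate 2 correlated best with vehicle replicate 1. With 4 libraries in a group this cannot exclude a shared culture or day, and the labels do not say what a number marks. With a replicate block, 22 genes of the machinery were higher and 8 were lower, ATG7 being added (adjusted p = 0.0398). Of the ratios, 0 of 12 pairs passed with the block, whose smallest possible p is 0.125, and 0 to 0 with 1 library left out, whose smallest possible p is 0.0571. Neither design can pass, so these say nothing of stability.

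FPKM hold no read counts, so counting error at low levels such as ATG16L2 and WIPI1 could not be given. The cause of the changes between settings was not tested.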
